A study of Arabidopsis thaliana with 16 samples.

Results

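Leaf transcripts of Arabidopsis thaliana plants with lowered NAA10 were compared with those of wild-type plants (WT) on 8 arrays, 4 of the knockdown line amiNAA10 and 4 of WT, out of 16 arrays in the study. The arrays were chosen by their titles and all 27826 probe sets were kept. The other 8 arrays came from a pair of HYPK insertion lines, which entered the estimate of the spread and were used as the nearest comparison. NAA10 is the catalytic subunit of NatA, the enzyme complex that places an acetyl group on the first residue of many proteins while they are still being made on the ribosome. NAA15 anchors NatA to the ribosome, HYPK is a small protein that binds the complex, and NAA50 is a further acetyltransferase that sits on NAA15. In Arabidopsis, NatA is known to affect drought responses and the stability of the immune receptor SNC1.

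All plants were 6 weeks old, untreated and grown in soil under short days of 8.5 h light, with a temperature of 22 °C in the day and of 18 °C in the night. The amiNAA10 plants carry an artificial microRNA directed at NAA10, so the transcript is lowered and not removed. The HYPK plants carry a T-DNA in exon 1 or in exon 2 of HYPK and no transgene against NAA10 is named for them. The promoter of the artificial microRNA, the number of independent insertions behind the line and the WT accession were not given in the sources used here. It is also not stated whether each sample was 1 plant or a pool, so p-values cover only the spread among these samples, and that spread may be technical. Leaves are mixed tissue, and fewer cells of a type cannot be told apart from less RNA per cell.

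Values are RMA (robust multi-array average) expression values on the log2 scale, and differences are amiNAA10 minus WT unless another comparison is named. A difference of 1 is a 2-fold change. A gene is said to have risen or fallen where limma, fitted to all 16 arrays and all 27826 probe sets, gave a two-sided p under 0.05 after Benjamini-Hochberg adjustment, and adjusted p-values below come from that fit. Array data have no read depth, and precision is limited by the 4 arrays of each genotype. Arrays of amiNAA10 correlated with each other at r between 0.985 and 0.990 over all probe sets, WT arrays likewise, and amiNAA10 arrays correlated with WT arrays at r between 0.936 and 0.966. These are correlations across genes, which are not independent replicates. Of 17 Calvin cycle genes, used as leaf markers, each had a mean above 1.83, the level that bounds the dimmest 30% of probe sets. Of 7 flower, seed and pollen markers, 5 lay under that level in both genotypes.

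NAA10 itself was lower in each knockdown array. Its probe set (AT5G13780) read 2.96, 2.97, 2.64 and 2.97 in the amiNAA10 arrays and 4.89, 5.06, 4.86 and 5.03 in the WT arrays. The groups were separated by 1.88, and replicate 3 was the lowest array. The difference was -2.07 (SE 0.12), which left 23.8% of the WT level (adjusted p = 2.46e-08 by limma; exact permutation p = 0.0286, the smallest that 4 arrays against 4 allow). NAA15 rose by 0.43 (SE 0.10, adjusted p = 0.00343), with amiNAA10 arrays at 8.15 to 8.51 and WT arrays at 7.85 to 8.05. HYPK differed by -0.32 and was not called (adjusted p = 0.0694, limma), although its 4 amiNAA10 arrays lay below all WT arrays. It was called when replicate 4 of the HYPK exon 2 line was left out of the fit (adjusted p = 0.0316). The same held with array weights and with only amiNAA10 and WT fitted (adjusted p = 0.0294 and 0.0471, limma). NAA50 fell by 0.37 (adjusted p = 0.0353, limma) with overlapping arrays, a call that ended when 1 of 5 arrays was left out, among them WT replicate 3 (-0.25, adjusted p = 0.130). That call also ended with array weights and with only amiNAA10 and WT fitted (adjusted p = 0.0531 and 0.0844, limma).

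The loci on either side of NAA10 on chromosome 5, in the order of the RefSeq gene table of TAIR10.1, did not read alike. AT5G13770 read 5.36, 4.96, 5.27 and 5.42 in amiNAA10 and 6.40, 6.20, 6.27 and 6.33 in WT. It fell by 1.05 (SE 0.13) to 48.2% of WT (adjusted p = 1.85e-05). AGL15 (AT5G13790), a MADS-box gene, differed by -0.06 (adjusted p = 0.794), with both means under 1.83. In the HYPK exon 1 and exon 2 lines AT5G13770 had means of 5.965 and 5.961, against 6.302 in WT. NAA10 had means of 4.837 and 4.955 there, against 4.959 in WT. Whether probes of AT5G13770 also bind NAA10 transcripts was not tested. Of the other cytosolic acetyltransferase genes, the NatB subunit gene NAA25 rose by 0.35 (adjusted p = 0.0267). Its call ended in 4 leave-one-out fits, namely without amiNAA10 replicate 1 or 2 and without WT replicate 3 or 4 (adjusted p from 0.0615 to 0.0937). The NAA25 call ended too with only amiNAA10 and WT fitted (adjusted p = 0.0535, limma).

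**Figure D1:**
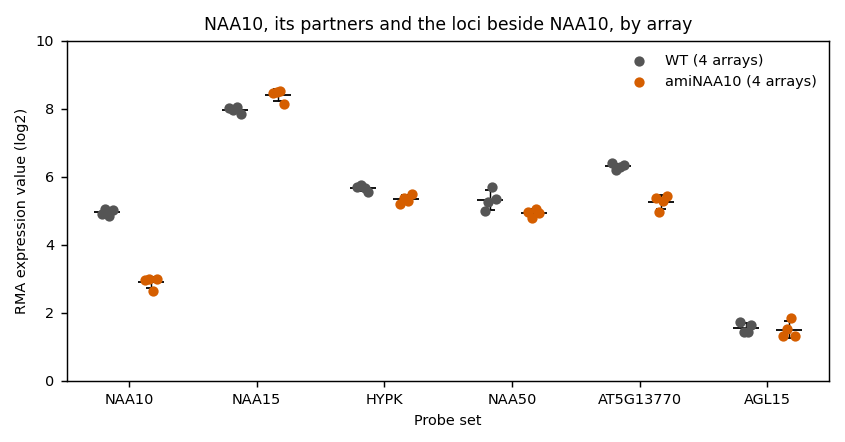
RMA expression value (log2, y axis) of NAA10, its partners NAA15, HYPK and NAA50, and the loci beside NAA10 (x axis) in 4 WT arrays (grey) and 4 amiNAA10 arrays (orange), with mean and SD as bars. The 4 amiNAA10 arrays of NAA10 lie between 2.64 and 2.97, all below the WT arrays at 4.86 to 5.06.

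The response of the leaf transcriptome was broad. Of 27826 probe sets, 8549 were called (30.7%), 4274 higher (15.4%) and 4275 lower (15.4%). The 2 directions differed in size: 1171 probe sets rose at least 2-fold (4.21%) and 1089 fell at least 2-fold (3.91%), but 291 rose and 111 fell at least 4-fold, and 97 rose and 17 fell at least 8-fold. At 16-fold and above there were 28 rises and 3 falls. The 4 amiNAA10 arrays lay above all WT arrays for 4279 probe sets (15.4%) and below them for 4248 (15.3%), together 30.6%. Over all probe sets the median difference was -0.02. Calls were rarer among dim probe sets: of 10 equal classes by level, the dimmest had 0.826% called higher and 0.647% lower, and the brightest 30.9% and 28.0%.

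Among genes with a symbol, the largest rises came mostly from genes of receptors, calcium and defence proteins. CAX3 (AT3G51860), a vacuolar exchanger of calcium for protons, read 9.94, 9.73, 9.71 and 9.82 in amiNAA10 and 3.71, 3.88, 4.11 and 4.33 in WT. Its SDs were 0.11 and 0.27 (n = 4 each), and the lowest knockdown array lay 5.37 above the highest WT array. It was 55.4-fold higher (5.79, SE 0.30, adjusted p = 1.51e-08). The chitinase-like gene CHI (AT2G43570) read 9.69, 10.12, 9.73 and 9.74 in amiNAA10 against 4.37, 4.47, 3.73 and 4.93 in WT, a rise of 5.45 (SE 0.48, adjusted p = 1.37e-06).

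PR1 (AT2G14610), the classical marker protein of salicylic acid signalling, read 7.17, 8.67, 7.82 and 6.96 in amiNAA10 and 2.09, 1.84, 2.15 and 3.12 in WT. It rose by 5.36 (SE 0.92, adjusted p = 0.000333), with the highest knockdown value in replicate 2. ABCG40 (AT1G15520), a plasma membrane importer of abscisic acid, spread most, at 6.43, 10.84, 8.89 and 6.92 in amiNAA10 against 2.83, 3.05, 3.33 and 3.02 in WT. Even its lowest knockdown array was above all WT arrays, and the rise was 5.22 (SE 1.11, adjusted p = 0.00182). NIT2, a nitrilase, rose by 4.99 from a WT mean under 1.83, so its rise may be a lower bound. Receptor genes made up most of the remaining large rises: the receptor-like proteins RLP41 (5.06), RLP38 (4.38) and RLP39 (4.30), the cysteine-rich receptor-like kinases CRK6 (4.70), CRK23 (4.49) and CRK7 (4.48), and the receptor kinase RK1 (AT1G65790, 4.29). The calmodulin-like gene CML41 (4.77), the glutamate receptor-like channel gene GLR2.8 (4.31) and the cytochrome P450 gene CYP71B23 (4.29) completed the 15 largest.

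Among rises with the smallest adjusted p, beside CAX3, the neighbour of GLR2.8 named GLR2.7 (AT2G29120) read 8.95, 8.88, 8.82 and 8.94 in amiNAA10 and 5.01, 5.25, 4.98 and 5.79 in WT. The rise was 3.64 (SE 0.24, adjusted p = 1.69e-07). GRP3S, a small glycine-rich protein gene, rose by 4.12 (SE 0.29), the lectin receptor kinase gene CES101 by 2.94 (SE 0.21) and the zinc finger gene IDD11 by 1.56 (SE 0.12). IDD11 shows how small a spread some modest changes had, with amiNAA10 arrays at 5.44 to 5.74 and WT arrays at 3.93 to 4.29.

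The 15 largest falls began with ARR15, CSLA01 and ARR6. ARR15 (AT1G74890), a response regulator that cytokinin induces and that restrains cytokinin signalling, read 1.97, 2.05, 3.19 and 3.20 in amiNAA10 and 7.49, 7.31, 7.01 and 6.49 in WT. It fell by 4.47 (SE 0.51), to 4.50% of WT (adjusted p = 1.12e-05). CSLA01 (AT4G16590), of the cellulose synthase-like A family, read 1.55, 1.75, 1.72 and 2.12 in amiNAA10 against 5.73, 4.77, 6.71 and 7.63 in WT. The WT arrays spread widely while the knockdown arrays sat near the dimmest values, so that the fall of 4.43 (SE 0.41, adjusted p = 2.07e-06) may be a lower bound. ARR6 (AT5G62920) read 3.16, 3.08, 3.37 and 4.05 against 7.28, 7.4, 7.19 and 7.04 and fell by 3.81 (SE 0.27, adjusted p = 2.51e-07).

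ATSDI1, known from sulphur deficiency, fell by 3.37 (SE 0.38), and JMT, which makes methyl jasmonate, by 3.35 (SE 0.23). JMT read 2.75 to 3.66 in amiNAA10 and 6.39 to 6.76 in WT. The fall of MES18, a member of the methyl esterase family, was 2.79 (SE 0.20). The plastoglobule protein gene FIB (AT4G04020) had the smallest adjusted p of any fall with a symbol: it read 6.47, 6.04, 5.96 and 5.94 in amiNAA10 and 7.99, 8.17, 8.01 and 7.92 in WT, a fall of 1.92 (SE 0.13, adjusted p = 1.91e-07). Falls between 2.66 and 3.25 were found in the remaining genes of the 15 largest: the trichome birefringence-like gene TBL26, SAUR29 of the small auxin up-regulated RNAs, the kinase gene CIPK20, the alpha carbonic anhydrase gene ACA1 (AT3G52720), the iron superoxide dismutase gene FSD1, the beta-amylase gene BAM5, LEA3 of the late embryogenesis abundant family, the expansin gene EXPA11 and SQS2, a squalene synthase gene.

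**Figure D2:**
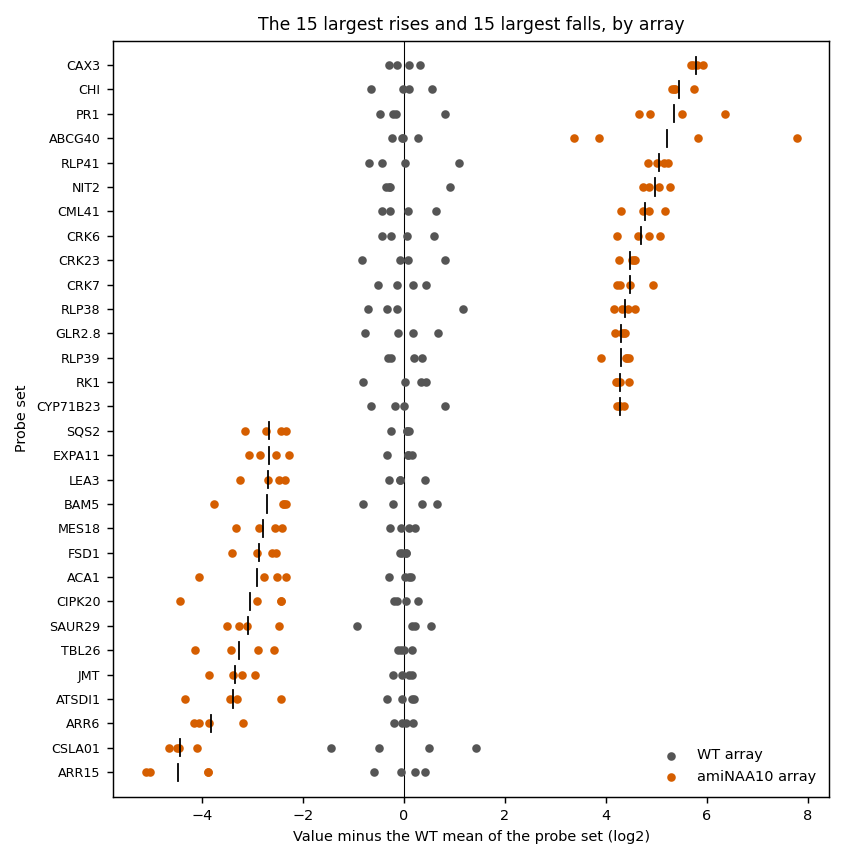
Value of each array minus the WT mean of its probe set (log2, x axis) for the 15 largest rises and 15 largest falls (y axis), with WT arrays in grey, amiNAA10 arrays in orange and the amiNAA10 mean as a black tick. For every gene the orange points lie on one side of all grey points, and ABCG40 has the widest orange spread.

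Salicylic acid is the hormone that switches on defence against pathogens feeding on living cells. Of 26 measured genes of its synthesis and signalling 17 rose and 9 were not called, with a median difference of 1.42 against -0.02 over all probe sets, of which 15.4% rose. Of its synthesis genes, EDS16, the isochorismate synthase gene, rose by 2.10 (adjusted p = 0.00171), EDS5, the chloroplast exporter gene, by 2.60 and PBS3, which joins glutamate to isochorismate, by 2.01, while EPS1, which acts after PBS3, differed by -0.03 (adjusted p = 0.937). ACD6, whose membrane protein raises salicylic acid levels, read 10.31, 10.06, 10.02 and 10.22 in amiNAA10 and 7.58, 7.80, 7.14 and 7.99 in WT, and rose by 2.52 (SE 0.20, adjusted p = 5.23e-07).

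The receptor gene NPR1 rose by 1.18 (SE 0.16) and the transcription factor gene SARD1 by 3.15 (SE 0.43). EDS1, a lipase-like hub of receptor signalling, rose by 1.76 (SE 0.27) and the salicylic acid glucosyltransferase gene UGT74F2 by 1.34 (SE 0.22). DMR6, which hydroxylates salicylic acid, read 9.86, 10.02, 9.82 and 9.79 against 6.18, 6.57, 6.01 and 7.33, a rise of 3.35 (SE 0.35, adjusted p = 5.63e-06). Genes of the N-hydroxypipecolic acid branch of systemic immunity depended on the array. FMO1 read 2.23, 7.24, 4.37 and 2.34 in amiNAA10 and 1.30 to 2.05 in WT, and its difference of 2.40 was not called (adjusted p = 0.0910). Its 4 knockdown arrays lay above all WT arrays, and without amiNAA10 replicate 1 it was called (3.0, adjusted p = 0.0496). UGT76B1 was also highest in replicates 2 and 3, at 3.02, 7.51, 5.81 and 2.67 against 1.54 to 2.0 (3.01, adjusted p = 0.0611), and was called under 6 of the 15 other settings (adjusted p from 0.0221 to 0.0499), among them without amiNAA10 replicate 1 or 4.

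Defence output genes, whose proteins act on the pathogen or mark the response, had 16 rises among 18 members and a median difference of 2.60. Of all probe sets 15.4% rose. The wall-associated kinase gene WAK1 read 6.97, 7.23, 6.54 and 6.93 in amiNAA10 and 3.29, 3.25, 3.86 and 4.57 in WT, and rose by 3.18 (SE 0.27, adjusted p = 9.49e-07). PR5, a thaumatin-like protein gene, rose by 3.63 (SE 0.49) and PNP-A, a natriuretic peptide-like gene, by 3.05 (SE 0.43). PAD3, the last enzyme of camalexin synthesis, read 3.12, 5.90, 4.08 and 3.88 against 0.86 to 1.19 in WT and rose by 3.18 (SE 0.54), which may be a lower bound because the WT mean is under 1.83. That holds for FLS2, IAA5 and MUTE too, each with a mean under 1.83 in the genotype where it was lower. HCHIB, a basic chitinase gene, rose by 2.27 (SE 0.43). The defensin gene PDF1.2, an output of jasmonate and ethylene signalling, overlapped between genotypes, at 7.84, 7.27, 5.25 and 8.21 against 6.66, 5.24, 1.13 and 6.49 (2.26, adjusted p = 0.123).

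Immune receptors rose at both the cell surface and inside the cell. Of 20 surface receptors and partners, 16 rose, beside 15.4% of all probe sets, with a median difference of 1.39. CRK11 is counted here and also in the chromosome 4 kinase list below. RLP23, which senses a peptide of necrosis-inducing proteins, read 9.10, 9.29, 9.11 and 9.20 in amiNAA10 and 5.62, 5.70, 5.63 and 6.44 in WT, and rose by 3.33 (SE 0.29, adjusted p = 1.02e-06). FLS2, the flagellin receptor gene, rose by 1.41 (SE 0.20, adjusted p = 6.41e-05). SOBIR1 and BAK1, coreceptors of such proteins, rose by 1.47 and 1.15 (adjusted p = 9.50e-05 and 0.000141). Of the receptors of plant elicitor peptides, PEPR1 differed by -0.43 and PEPR2 by 0.23, and neither was called (adjusted p = 0.246 and 0.461, limma).

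The cysteine-rich receptor-like kinase genes that lie next to each other on chromosome 4 had 15 rises and 1 fall among 18. The share of all probe sets was 15.4% in each direction. CRK23 read 7.54, 7.49, 7.23 and 7.53 against 3.04, 2.89, 3.79 and 2.14, CRK18 rose by 1.91 (SE 0.19) and CRK6 by 4.70 (SE 0.47). The fall was that of CRK21, at 6.64, 5.31, 6.46 and 6.58 in amiNAA10 and 7.62 to 8.02 in WT (-1.59, SE 0.27, adjusted p = 0.000298). These genes are near copies of each other, and probes may bind transcripts of a neighbour, so single members are uncertain.

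Of 22 intracellular NLR receptors and their regulators 16 rose, beside 15.4% of all probe sets. Sizes were smaller, with a median difference of 0.59. The helper receptor genes ADR1-L1 and ADR1-L2 rose by 1.73 (SE 0.23) and 1.12 (SE 0.17), and RPP1, a receptor gene against downy mildew, by 0.84 (SE 0.12). SNC1, the receptor whose protein NatA acetylates, read 8.20, 8.53, 8.25 and 8.08 in amiNAA10 and 7.62, 7.69, 7.55 and 7.73 in WT. Its rise of 0.62 (SE 0.11, adjusted p = 0.000490) is a difference of transcript, and protein was not measured.

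WRKY transcription factors, which bind defence promoters, had 13 rises and 1 fall among 22 and a median difference of 1.4. The share of all probe sets was 15.4% each way. WRKY25 rose by 2.01 (SE 0.28), WRKY46 by 2.24 (SE 0.34) and WRKY60 by 1.96 (SE 0.33). The fall was that of WRKY11 (-0.42, adjusted p = 0.0355), a call that ended without amiNAA10 replicate 3 and without WT replicate 1, 2 or 4. WRKY18 read 6.66 to 7.19 in amiNAA10 and 6.39 to 7.50 in WT (0.06, adjusted p = 0.933).

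Among 25 calcium genes 11 rose and 2 fell, and the median difference was 0.36. Of all probe sets 15.4% were called in each direction. In the class with means of 5.10 to 5.94, about the level of this list, 24.6% rose and 24.8% fell. After CAX3, CML41 read 7.22, 7.10, 6.66 and 7.53 in amiNAA10 and 1.92 to 2.99 in WT. The plasma membrane calcium pump gene ACA10 rose by 1.15 (SE 0.12), the calmodulin-like gene TCH3 by 1.47 (SE 0.20) and CBP60A, a calmodulin-binding relative of SARD1, by 0.79 (SE 0.15). The vacuolar channel gene TPC1 rose by 0.47 (SE 0.10). Falls were called for the calmodulin-like gene TCH2 (-1.05, adjusted p = 0.00330) and the annexin gene ANNAT4 (-1.59, adjusted p = 0.00991). CAX1, the main relative of CAX3 in leaves, read 9.44 to 9.76 in amiNAA10 and 9.16 to 9.51 in WT, and its difference of 0.25 was not called (adjusted p = 0.145).

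Genes of protein folding in the endoplasmic reticulum had 12 rises among 19, beside 15.4% of all probe sets, and a median difference of 0.90. The calreticulin gene CRT3, needed for the folding of some receptors, read 8.76, 8.91, 8.76 and 8.95 in amiNAA10 and 6.65, 6.62, 6.56 and 7.14 in WT, and rose by 2.10 (SE 0.27, adjusted p = 2.77e-05). The stress sensors IRE1A and BZIP28 rose by 0.90 (SE 0.18) and 0.59 (SE 0.13). For the chaperone gene BIP3, the difference was 2.24 (adjusted p = 0.0305), with values of 5.33, 6.41, 5.70 and 4.76 against 3.07 to 3.73. Without amiNAA10 replicate 2, which had the highest list mean (6.96 against 6.26 to 6.49 in the other knockdown arrays), 6 of these 19 genes were called higher. Glutathione transferases and catalases had 7 rises among 14 members, beside the same 15.4% of all probe sets. They were led by GSTF6 (3.28, SE 0.41), GSTF2 (2.71, SE 0.40) and CAT3 (0.98, SE 0.15). GSTF6 has a near copy, GSTF7, and the 2 may not be told apart by these probes.

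**Figure D3:**
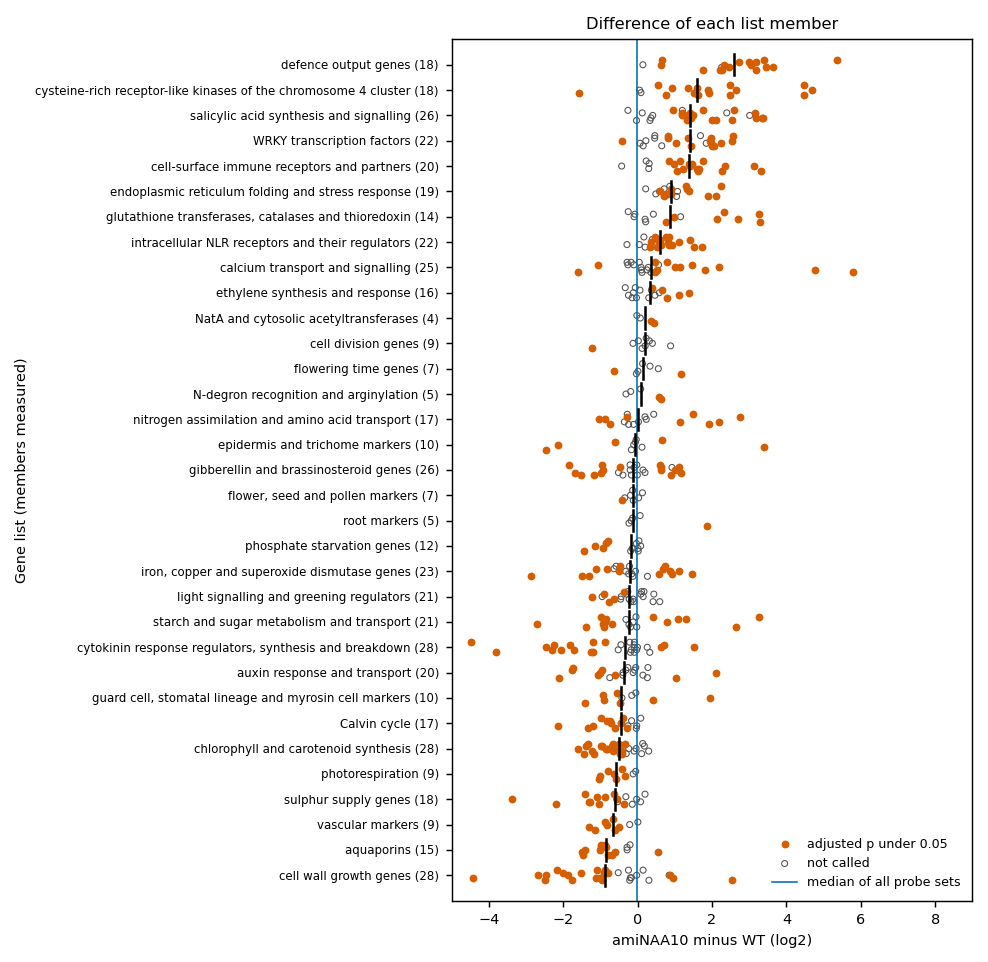
Difference between amiNAA10 and WT (log2, x axis) of every measured member of 33 gene lists (y axis, with the number of members), orange where the adjusted p was under 0.05 and open grey where not, with the list median as a black tick and the median of all probe sets as a blue line. Defence output genes have the highest list median (2.60) and cell wall growth genes the lowest (-0.88).

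Cytokinin is a hormone of cell division and shoot growth, sensed by histidine kinases and relayed by response regulators. Its genes had 3 rises and 12 falls among 28 measured, beside 15.4% of all probe sets in each direction, with a median difference of -0.33. The falls were concentrated in type-A response regulators, the early targets that feed back on the pathway: 8 of 10 fell, with a median difference of -2.16, and the others, ARR3 and RR17, had means under 1.83 in both genotypes. The classes within this list were chosen after the values were seen, so this concentration is a description only. RR5 (AT3G48100) read 3.45, 3.45, 4.01 and 3.89 in amiNAA10 and 6.41, 6.47, 5.46 and 6.31 in WT, a fall of 2.46 (SE 0.23, adjusted p = 2.43e-06). ARR7 read 6.40, 6.05, 6.32 and 7.02 against 8.87, 8.73, 8.68 and 8.52 and fell by 2.25 (SE 0.22). ARR4 fell by 1.2 (SE 0.15). Groups did not overlap for any of these.

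The receptor gene WOL (AT2G01830), also called AHK4 or CRE1, read 4.58, 4.58, 4.70 and 4.48 in amiNAA10 and 6.23, 6.28, 6.42 and 6.29 in WT. It fell by 1.72 (SE 0.14) to 30.3% of WT (adjusted p = 5.79e-07), while the other receptor genes HK2 and HK3 differed by -0.52 and -0.08 and were not called (adjusted p = 0.0788 and 0.581, limma). Type-B response regulators, the transcription factors of the pathway, went the other way: RR2 rose by 1.51 and RR1 by 0.72 (adjusted p = 3.55e-05 and 0.00218), and RR10 and RR12 were not called. The synthesis gene IPT3 fell by 1.21 (adjusted p = 0.000337). Of 7 genes for cytokinin oxidases, which break the hormone down, CKX6 and CKX4 fell by 1.25 and 0.87, and CKX1 rose by 0.63.

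Auxin genes had 7 falls and 2 rises among 20, beside 15.4% of all probe sets in each direction. The repressor gene AXR3 (IAA17) read 4.68, 4.20, 4.57 and 4.98 in amiNAA10 and 6.69, 6.56, 6.91 and 6.67 in WT, a fall of 2.10 (SE 0.17, adjusted p = 6.81e-07). IAA5 fell by 1.06 and the efflux carrier gene PIN7 by 1.02 (adjusted p = 9.57e-06 and 2.22e-05). The rises were those of GH3 genes, which conjugate auxin or related acids: WES1 by 1.02 (adjusted p = 0.000836) and GH3.3 by 2.11 (adjusted p = 0.0290). Leaving out any of 5 arrays, amiNAA10 replicate 1 or 2 or WT replicate 1, 2 or 3, reduced the rises to 1. Of 26 gibberellin and brassinosteroid genes 7 rose and 8 fell, against the same 15.4% each way, and the list had no common direction (median difference -0.13). The gibberellin synthesis gene GA3OX1 fell by 1.51 (SE 0.15) and the DELLA repressor gene RGL3 by 1.67 (SE 0.22), while BRI1, the brassinosteroid receptor gene, rose by 1.02 (SE 0.15). Ethylene genes had 5 rises among 16, including the transcription factor gene EIN3 (0.78, SE 0.10), the receptor gene ERS1 (1.12, SE 0.17) and EBF2 (1.39, SE 0.25), which marks EIN3 for breakdown.

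Cell wall growth genes had 16 falls and 3 rises among 28, beside 15.4% of all probe sets in each direction, with a median difference of -0.88. XTH7, a xyloglucan-modifying enzyme gene, read 5.52, 4.82, 5.66 and 5.91 in amiNAA10 and 7.52, 7.84, 8.18 and 8.31 in WT, and fell by 2.49 (SE 0.21, adjusted p = 9.49e-07). EXPA11, an expansin gene that loosens walls, read 2.66, 2.45, 2.98 and 3.24 against 5.17, 5.60, 5.59 and 5.67. A gene of the same family as XTH7, XTH31, was among the falls with the smallest adjusted p (-2.39, SE 0.17, adjusted p = 2.40e-07). Against that direction XTH24 rose by 2.55, XTH16 by 0.95 and XTH9 by 0.86 (adjusted p = 0.000383, 5.72e-05 and 0.00756). Aquaporins, the water channels of plasma membrane and vacuole, had 11 falls and 1 rise among 15 and a median difference of -0.86. At the level of this list, 24.3% of probe sets fell in the class of 5.94 to 6.93 and 28.0% in the brightest. PIP1A read 4.40, 4.08, 4.54 and 4.6 against 6.06, 5.82, 5.89 and 5.70 and fell by 1.46 (SE 0.17), PIP1;5 fell by 1.48 (SE 0.24) and TIP2;2 by 1.4 (SE 0.22). The rise was that of PIP2;8 (0.56), which had overlapping arrays and a WT mean under 1.83.

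In carbon fixation, 11 of 17 Calvin cycle genes fell and 6 were not called, with a median difference of -0.46. Of all probe sets 15.4% fell. In the brightest class, at the level of this list and of the photorespiration list, 28.0% fell. CP12-2, a small regulatory protein gene, read 8.13, 7.55, 7.94 and 8.19 in amiNAA10 and 9.22, 9.32, 9.30 and 9.27 in WT, and fell by 1.32 (SE 0.12, adjusted p = 2.43e-06). The Rubisco small subunit gene RBCS2B read 7.63, 6.87, 7.44 and 7.6 against 9.62, 9.41, 9.83 and 9.29 and fell by 2.15 (SE 0.21, adjusted p = 3.63e-06). RBCS1B fell by 0.99 (SE 0.20), but the small subunit genes are near copies and their probes may share targets. The enzyme genes GAPB, SBPASE and FBA1 fell by 0.71, 0.83 and 0.60. Photorespiration genes fell in 7 of 9 cases, led by the glycine decarboxylase and serine pathway genes SHM1 (-1.05, SE 0.10), GDCH (-1.02, SE 0.15) and GLDP1 (-0.65, SE 0.10).

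Of 28 chlorophyll and carotenoid genes, 20 fell, with a median difference of -0.50. The array means of this list lay at the level of the brightest class, in which 28.0% fell. POR C, which reduces protochlorophyllide in the light, read 6.58, 6.00, 6.44 and 6.47 in amiNAA10 and 8.03, 7.95, 7.75 and 7.50 in WT, and fell by 1.43 (SE 0.18, adjusted p = 2.53e-05). The xanthophyll genes NPQ1 and BETA-OHASE 2 fell by 1.24 and 1.59 (adjusted p = 4.35e-05 and 6.79e-05). Light signalling and greening regulators had 5 falls among 21, a share not far from the 15.4% of all probe sets that fell. GLK2, a transcription factor of chloroplast genes, fell by 0.78 (SE 0.13), HB-2 by 0.63 and HY5 by 1.22. Without amiNAA10 replicate 2, 3 of the 21 were called lower. Among 21 starch and sugar genes 6 rose and 9 fell, beside 30.9% and 28.0% in the brightest class, which is about their level. The granule-bound starch synthase gene GBSS1 fell by 1.39 (SE 0.14), DPE2 by 0.94 and APL3 by 0.90. The sugar transporter gene STP4 rose by 1.31, the hexose transporter gene MSS1 by 2.66 and the plastid glucose phosphate transporter gene GPT2 by 3.27.

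Nutrient genes differed by element. In nitrogen metabolism 5 of 17 rose and 4 fell. The array means of this list, 7.05 to 7.58, lay at the level of the brightest class of probe sets. In that class 30.9% rose and 28.0% fell, so the nitrogen counts show no excess for their level. ASN1, an asparagine synthetase gene, read 7.01, 6.86, 7.07 and 6.6 in amiNAA10 and 4.52, 5.0, 5.35 and 5.0 in WT (1.91, SE 0.22, adjusted p = 1.31e-05). The nitrate reductase gene NIA1 rose by 1.13 (SE 0.14), and NIR1, for the next enzyme of the pathway, fell by 1.02 (SE 0.14). Of 18 sulphur supply genes 11 fell, beside 15.4% of all probe sets, with a median difference of -0.60. The vacuolar sulphate exporter gene SULTR4;2 read 4.09, 3.72, 3.74 and 3.87 against 5.86, 6.25, 5.82 and 6.33 and fell by 2.21 (SE 0.21, adjusted p = 2.47e-06), and SULTR2;1 fell by 1.29 (SE 0.14). The mean of the sulphur list was lowest in replicate 3, where ATSDI1 read 3.5 beside 4.41 to 5.42 in the other knockdown arrays.

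Iron, copper and superoxide dismutase genes had 7 rises and 7 falls among 23, with array means of 5.76 to 6.16. In the classes of probe sets with means of 5.10 to 5.94 and of 5.94 to 6.93, 24.6% and 27.0% rose. In the same classes 24.8% and 24.3% fell, so these counts were near the share for their level. FSD1 read 4.63, 4.72, 3.85 and 4.34 in amiNAA10 and 7.29, 7.17, 7.29 and 7.22 in WT and fell by 2.86 (SE 0.28, adjusted p = 3.29e-06). CCS, the copper chaperone gene of superoxide dismutases, rose by 0.88 (SE 0.13) and the phloem iron transporter gene OPT3 by 0.94 (SE 0.14). Of 12 phosphate genes 5 fell, beside 15.4% of all probe sets, and 4 of the 12 had means under 1.83 in both genotypes. The falls included the sulpholipid synthesis genes SQD2 (-1.45, SE 0.17) and SQD1 (-1.14, SE 0.15) and MGD2 (-0.94, SE 0.12). Among 5 measured genes of the N-degron pathway, which reads the first residue of proteins for breakdown, BIG rose by 0.64 and the recognition protein gene PRT6 by 0.56 (adjusted p = 0.000456 and 0.00374), and PRT1 differed by -0.31 (adjusted p = 0.152).

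Markers of cell types and tissues were examined beside these results, again with 15.4% of all probe sets called in each direction. Vascular markers fell in 7 of 9 cases, and their list mean was 4.62 to 4.75 in amiNAA10 arrays and 5.27 to 5.51 in WT arrays. The phloem genes APL and PP2-A1 fell by 1.16 (SE 0.11) and 0.83 (SE 0.10), and SULTR2;1, already named, is in this list as well as in the sulphur list. Guard cell, stomatal lineage and myrosin cell markers had 5 falls and 2 rises among 10: OZS1 and KAT1, channels of mature guard cells, fell by 1.43 (SE 0.19) and 0.91 (SE 0.12), while SPCH, which starts the stomatal lineage, rose by 1.95 (SE 0.34, adjusted p = 0.000401). The other rise was that of MUTE (0.42, adjusted p = 0.03), and only 1 rise was called without amiNAA10 replicate 1, 3 or 4 or WT replicate 3 or 4. The myrosinase genes TGG1 and TGG2 differed by -0.05 and -0.16 and were not called (adjusted p = 0.757 and 0.403, limma).

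Among 10 epidermis and trichome markers, 3 fell and 2 rose. The trichome gene TRY fell by 2.46 (SE 0.27) and the wax gene CER1 by 2.14 (SE 0.42), and PDF1, of the young shoot epidermis, read 5.19, 6.32, 6.55 and 3.54 in amiNAA10 and 1.87 to 2.11 in WT (3.39, SE 0.43, adjusted p = 2.53e-05). TTG1, a trichome regulator, rose by 0.65 (adjusted p = 0.0132), and 1 of the 2 rises was called without WT replicate 3. The epidermal identity genes ATML1 and PDF2 differed by -0.17 and -0.10 and were not called (adjusted p = 0.380 and 0.677, limma). Of 9 cell division genes, HIS4 fell by 1.22, and CYCD3;1, a cyclin of dividing leaf cells, read 5.29, 5.98, 6.29 and 4.24 against 4.16 to 4.84 (0.89, adjusted p = 0.0601). CYCD3;1 was called without amiNAA10 replicate 4 (1.29, adjusted p = 0.00199). The list mean of cell division genes was 2.94, 3.41, 3.64 and 2.80 in the amiNAA10 arrays and 2.94 to 3.27 in WT, so PDF1, SPCH and CYCD3;1 were all highest in replicates 2 and 3 and lowest in replicate 4. Among 5 root markers, whose median difference was -0.14 and whose mean was 0.28, PYK10 rose by 1.86 (adjusted p = 0.00274), at 2.17, 5.03, 4.31 and 3.46 against 1.72 to 1.99, while the root-defining genes RHD6 and WOX5 were under 1.83 in both genotypes. Of 7 flowering time genes 1 rose and 1 fell, about the 15.4% of all probe sets in each direction: TOC1, a clock gene, rose by 1.16 and SVP, a repressor of flowering, fell by 0.63 (adjusted p = 0.000454 and 0.00238), and FLC was called as well without amiNAA10 replicate 3. The part of cell composition in the changes described above was not tested.

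The 4 knockdown arrays also differed from each other. The median SD over probe sets was 0.184 in amiNAA10 and 0.193 in WT, but 85 probe sets had an SD above 1 in amiNAA10 against 38 in WT. In the HYPK exon 1 and exon 2 lines the median SD was 0.195 and 0.212, and 123 and 232 probe sets had an SD above 1. A large spread was thus not particular to the knockdown line. Replicate 2 had 359 probe sets more than 1 from the mean of the other knockdown arrays, 276 of them higher, against 116, 179 and 219 for replicates 1, 3 and 4. Counted in the same way within their genotype, WT arrays had 150 to 327 such probe sets and HYPK arrays 190 to 926. FMO1, UGT76B1 and ABCG40 were the genes with a symbol that were farthest above in replicate 2, by 4.27, 3.68 and 3.43. The mean of the salicylic acid list was 5.19, 6.22, 5.46 and 5.16 in the amiNAA10 arrays and 3.77 to 4.04 in the WT arrays. Each knockdown array was thus above every WT array, and without replicate 2 15 of the 26 genes were still called higher, as were 16 of the 18 defence output genes. Replicate 2 was at the same time the lowest for the Calvin cycle list, at 9.38 beside 9.65 to 9.79 in the other knockdown arrays and 10.16 to 10.31 in WT. Replicate 3 stood out by low PDF1.2b (5.73), PDF1.2 (5.25) and MBP1 (3.38), replicate 4 by high MBP1 (7.71), and ARD3 was at 2.01 in replicates 1 and 4 against 5.95 and 5.71 in replicates 2 and 3.

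**Figure D4:**
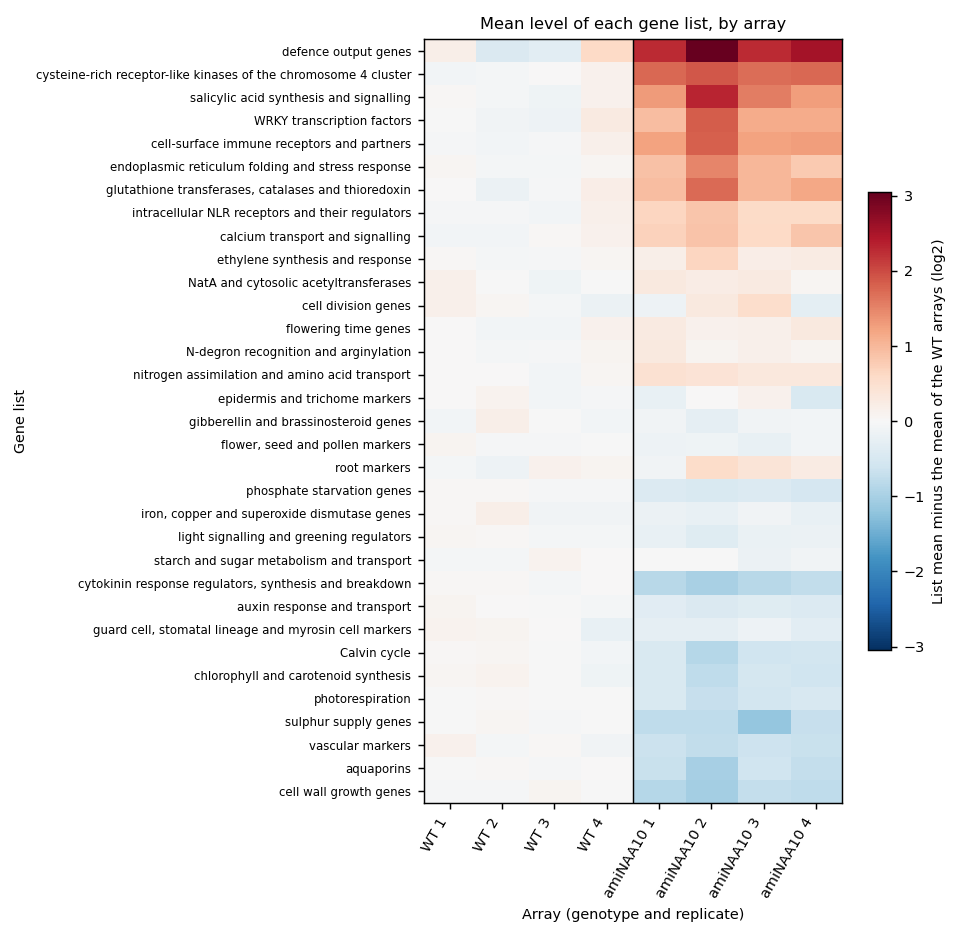
Mean over the members of each gene list (y axis) in each WT and amiNAA10 array (x axis), minus the mean of the 4 WT arrays (log2, colour, red higher and blue lower). Replicate 2 of amiNAA10 is the reddest column for the salicylic acid list (6.22 against a WT range of 3.77 to 4.04) and for defence output genes.

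The knockdown line was then set directly against the HYPK lines, whose target is a partner of the same complex, to see where it stands apart. The HYPK probe set itself read 4.72 ± 0.14 (SD, n = 4) in the exon 1 line and 5.40 ± 0.27 (SD, n = 4) in the exon 2 line. Its means were 5.66 in WT and 5.34 in amiNAA10, so the exon 2 line lay between them and nearer amiNAA10 by this probe set. Where its probes lie relative to the T-DNA insertions is not given in these sources. Against the mean of both HYPK lines, 2850 probe sets were called (10.2%), 1363 higher (4.9%) and 1487 lower (5.34%). These counts depended on single arrays: they were 708 and 679 without amiNAA10 replicate 2, 725 and 771 without amiNAA10 replicate 3, and 1734 and 1862 without replicate 4 of the exon 2 line, which lay apart from the other arrays of that line. NAA10 read 4.67 to 5.06 in the 8 HYPK arrays and was lower in amiNAA10 by 2.01 (95% interval 1.8 to 2.22 lower, adjusted p = 1.22e-08).

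The HYPK arrays did not form 1 level for defence genes: the mean of the salicylic acid list was 6.06 to 6.28 in exon 1 replicates 2 and 3 and exon 2 replicate 4, and 4.78 to 4.89 in the other 5, beside 5.16 to 6.22 in amiNAA10. None of the 26 salicylic acid genes was called by limma, with 1 higher and 1 lower at an unadjusted p under 0.05 and a median difference of 0.13 against -0.01 over all probe sets. Leaving out 1 HYPK array at a time gave the same count except without exon 2 replicate 4, where 1 gene was called higher. That fit was planned, and the fits without another HYPK array were chosen after seeing the data. CAX3 differed by 0.38 (95% interval -0.18 to 0.93, adjusted p = 0.440) and PR1 by 0.75 (95% interval -0.94 to 2.44, adjusted p = 0.644), so the intervals include differences in either direction. Some receptors and outputs were higher in the knockdown line: 4 of 20 surface receptor genes, among them CRK11 by 1.26 (adjusted p = 0.000123), and 2 of 18 defence outputs, HCHIB by 1.76 and PAD3 by 1.68 (adjusted p = 0.00709 and 0.0308). Of all probe sets 4.9% were higher in this comparison, so the count of defence outputs was little above that share. The receptor count was 2 without amiNAA10 replicate 2, 7 without replicate 3 of the exon 1 line and 10 without replicate 4 of the exon 2 line, and 1 defence output was called without amiNAA10 replicate 2 or 3 or exon 2 replicate 1.

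Other lists also held genes called between the lines. Of 28 cytokinin genes 10 were lower in amiNAA10 than in the HYPK lines and 2 were higher, beside 5.34% and 4.9% of all probe sets. Among the lower were 8 of 10 type-A response regulators, a class chosen after the values were seen. ARR6 had a WT range of 7.04 to 7.4, a HYPK range of 4.51 to 5.81 and a knockdown range of 3.08 to 4.05, so that no 2 of these groups overlapped; it was lower than in the HYPK lines by 1.8 (95% interval 1.30 to 2.30 lower, adjusted p = 0.000375). ARR15 was lower by 1.71 (adjusted p = 0.0210), with HYPK arrays at 2.84 to 5.84 overlapping the knockdown arrays. Of 20 auxin genes 7 were lower, including SHY2 by 1.4 and AXR3 by 0.88 (adjusted p = 0.000476 and 0.00163), and 7 of 18 sulphur genes, 7 of 28 cell wall genes and 5 of 15 aquaporin genes were lower as well. So were 8 of 28 chlorophyll and carotenoid genes, 4 of 9 photorespiration genes and 4 of 17 Calvin cycle genes, which became 1, 1 and 2 without amiNAA10 replicate 2. Without replicate 3 the first 2 of these counts were 4 and 2, and without exon 2 replicate 4 the Calvin cycle count was 7. Of 9 cell division genes 3 were higher, with CYCD3;1 at 1.74 (adjusted p = 0.00182). Without amiNAA10 replicate 2 the counts of lower genes were 5 for cytokinin (4 type-A regulators), 4 for auxin, 4 for sulphur and 4 for cell walls. Without replicate 3, 2 sulphur genes were called, and without replicate 1, 4 auxin genes. The cell division count was 1 without amiNAA10 replicate 2 or 3 or exon 1 replicate 1.

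Largest among the genes higher than in all 8 HYPK arrays were PDF1 and GER3, a germin-like protein gene. PDF1 was 3.65 higher (95% interval 2.87 to 4.43, adjusted p = 4.52e-05), with HYPK arrays at 1.51 to 1.92. The means of PDF1 and PEL3 in both HYPK lines, and of SPCH in the exon 1 line, were under 1.83, so these differences may be lower bounds. GER3 read 7.0, 6.66, 7.33 and 5.95 in amiNAA10 and 1.97 to 5.54 in the HYPK arrays (3.02 higher, adjusted p = 0.000573). The lipase-like gene LTL1 was 2.93 higher and SPCH 2.37 higher. PEL3, an acyltransferase gene of the cuticle, read 3.31, 5.24 and 5.41 in replicates 1 to 3 and was lower in replicate 4, just above the HYPK arrays at 1.53 to 2.06, and the glucanase-like gene E13L3 read 3.22, 5.19, 5.85 and 2.94 against 1.78 to 2.52. PDF1, SPCH, PEL3 and E13L3 shared the order noted for the cell division genes, high in replicates 2 and 3 and lowest in replicate 4.

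Lowest relative to all 8 HYPK arrays was the probe set listed under the microRNA gene MIR841a, which read 4.13, 2.97, 2.70 and 4.04 in amiNAA10, 5.02 to 5.57 in WT and 5.58 to 6.51 in the HYPK arrays. It was lower than in the HYPK lines by 2.60 (95% interval 2.12 to 3.08 lower, adjusted p = 1.53e-05) and lower than in WT by 1.76 (adjusted p = 0.000103). MIR169m was lower by 1.67 than in the HYPK lines and by 2.42 than in WT. CIPK20, LEA3 and EXPA8 were lower than in the HYPK lines by 2.19, 1.92 and 1.83 (adjusted p = 0.000965, 0.000142 and 0.00169). EXPA8, an expansin gene, read 5.15, 4.28, 5.53 and 5.30 in amiNAA10, 6.24 to 7.79 in the HYPK arrays and 6.92 to 7.76 in WT.

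**Figure D5:**
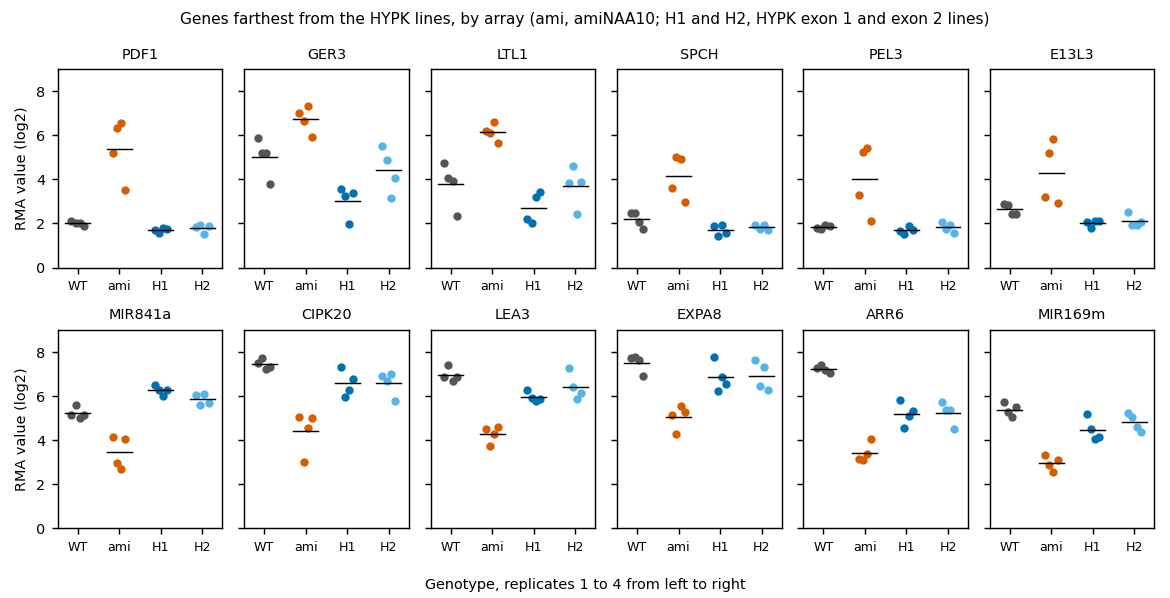
RMA expression value (log2, y axis) of the 6 genes highest and 6 lowest in amiNAA10 relative to both HYPK lines, by array in the 4 genotypes (x axis), with means as bars. The orange amiNAA10 points lie on one side of all 8 HYPK points in each panel, and those of PDF1, SPCH, PEL3 and E13L3 span 2.07 or more.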

How the data were processed

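Total leaf RNA of 16 samples, 4 per genotype, was labelled as biotin cRNA and hybridised to Affymetrix arrays, per the labels' protocols. The deposited values are on the log2 scale and were made by the authors with RMA, per the submitters' processing notes. RMA corrects background, gives all arrays the same distribution and summarises probes, so an overall rise or fall of RNA per leaf cannot be seen, and dim probe sets are compressed towards a floor. The sorted arrays differed by at most 0.0019 at any rank. Which array was used, with which software and which annotation of its probes, was not given in the sources used here.

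All 27826 probe sets were fitted with limma 3.58.1 in R 4.3.3, with 4 genotypes and empirical Bayes moderation (12 residual degrees of freedom), with Benjamini-Hochberg adjustment across the whole table (threshold 0.05). Exact permutation was run only for NAA10, NAA15, HYPK, NAA50 and the loci on either side of NAA10. Symbols came from the RefSeq gene table of TAIR10.1, which held 27241 of the loci, 10556 of them with a symbol. NAA10, HYPK and NAA50 were named by locus code. No genome or sequence table was used, so protein second residues and promoter motifs were not analysed here.

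The 33 gene lists and their members were chosen with earlier results of these data known, and the cytokinin subclasses after their values were seen. Named genes are the 15 largest changes each way and the 5 with the smallest p each way (called, with symbol, without overlap between groups), the 3 of smallest p in each list (6 in 5 lists), the 6 farthest each way from the HYPK lines and the 3 farthest on each knockdown array. Other genes that are named, such as SNC1, CRK21, WRKY11, CAX1, HK2, HK3 and further members given beside a list's count, were picked after their values were seen. Alternatives were array weights, an intensity trend, fits of fewer groups, a filter on dim probe sets, centring, a replicate block and leaving out single arrays.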

Additional observations from a re-analysis of the deposited data

Results flagged for a closer look

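Among the named genes, 312 groups of 4 arrays (156 genes in each genotype) were examined for a single array far from the other 3, by Dixon's 95% limit, and 26 such arrays were found. Chance gives about 1 in 20 groups. For the complex itself, NAA10 was lowest in amiNAA10 replicate 3 at 2.644 beside 2.957 to 2.974, and NAA15 was lowest in amiNAA10 replicate 4 at 8.15 beside 8.475 to 8.514.

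In WT replicate 4, 4 genes that rose in the knockdown line were higher than on the other WT arrays, NIT2 at 2.597, GRP3S at 7.104, RLP23 at 6.437 and CRT3 at 7.136. ARD3, which was not called, was also highest there at 2.895. The same array was lowest for EXPA8 at 6.925, BETA-OHASE 2 at 6.766 and PRT1 at 3.835. WT replicate 1 was lowest for EXPA11 at 5.174 and SQS2 at 7.375 and highest for CCS at 7.214. WT replicate 2 was lowest for BIG at 7.885, and WT replicate 3 for RR5 at 5.464.

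In amiNAA10 replicate 2, CHI at 10.123, UGT74F2 at 8.535 and CBP60A at 7.631 were above the other knockdown arrays, and APL3 at 4.413 and SQD2 at 5.842 were below them. In amiNAA10 replicate 3, CRK23 at 7.23, BAM5 at 3.827, CES101 at 5.46 and RPP1 at 9.027 were lowest. RLP39 was lowest in amiNAA10 replicate 4 at 6.633, and EIN3 in amiNAA10 replicate 1 at 7.816.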

How the results depend on the processing

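Against WT, the counts over all probe sets stayed within 1.5 times of 4274 higher and 4275 lower under 15 other settings, and ranged from 3507 to 4057 and from 3467 to 4034 when 1 array of these genotypes was left out. Of 156 named genes, none that was called changed direction. The uncalled AGL15 did (-0.06, and 0.002 without amiNAA10 replicate 1 or 4). Of the 156 genes 4 lost a call under some setting (AG, GER3, NAA25 and NAA50) and 8 gained one (CDKB2;1, CYCD3;1, FLC, FMO1, HYPK, LFY, MBP1 and UGT76B1). Of the counts within lists, 946 stayed within 1.5 times and 44 did not. Against the HYPK lines, leaving out 1 array gave 708 to 1734 higher and 679 to 1862 lower, beside 1363 and 1487, and the cause was not tested. Same-numbered arrays of amiNAA10 and WT did not deviate together (r of -0.08 to 0.08), which cannot show whether the samples were handled in numbered sets. For amiNAA10 with the exon 1 line r was 0.17, 0.30, -0.10 and 0.10, with the own number best in 3 of 4, and with the exon 2 line it was -0.12 to 0.08, best in none, so not every pair exceeded 0.1 there either. A replicate block gave 4151 higher and 4208 lower against WT, and 1360 and 1417 against the HYPK lines. Recentring moved values by at most 0.000366. Protein second residues and promoter motifs, with their other window, were not run. Dim probe sets limit what can be seen: a fall to near the floor, as for CSLA01, is compressed.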

Other observations

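Transcripts encoded in the mitochondrial genome rose more often than they fell. Of 92 such probe sets, 36 rose (39.1%) and 6 fell (6.52%), beside 15.4% of all probe sets in each direction, with a median difference of 0.26 against -0.02 over all probe sets. Most of these rises were bright, and in the brightest class of all probe sets, from 6.93 upwards, 30.9% rose and 28.0% fell. Some probe sets may not be separate measurements. ATMG00080 and ATMG00090, both called higher, had means of 11.631 and 11.646 in amiNAA10 and 11.043 and 11.057 in WT. The excess of rises may therefore be smaller than these counts show. ATMG00290 read 10.27, 10.36, 10.39 and 10.12 in amiNAA10 and 9.28, 9.11, 8.88 and 9.01 in WT, and ATMG00520 rose by 1.02. Of 14 chloroplast-encoded probe sets 1 rose (7.14%) and 3 fell (21.4%), near the 15.4% of all probe sets each way and under the shares of the brightest class. On the arrays of both genotypes ATCG00140 read 13.488 to 13.490, ATCG00020 13.018 and ATCG00580 13.406 to 13.407, near the top of the scale, where a change could not be seen.

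Noncoding classes are given beside the 15.4% that rose and 15.4% that fell over all probe sets. Of 68 snoRNA probe sets 16 rose (23.5%) and 2 fell (2.94%), of 61 tRNA probe sets 1 rose (1.64%) and 13 fell (21.3%), and of 32 transcribed pseudogenes 15 rose (46.9%) and 1 fell. Among 174 microRNA genes 6 rose (3.45%) and 20 fell (11.5%), both under the share of all probe sets. The classes lncRNA (222 probe sets, 11.3% higher and 12.2% lower) and other ncRNA (165 probe sets, 15.8% and 9.70%) were near or under that share.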
